A study of Mus musculus with 17 samples.

Results

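The NRF2 antioxidant response genes described here are 10 mouse genes chosen by name: Nfe2l2, Keap1, Nqo1, Hmox1, Gclc, Gclm, Txnrd1, Srxn1, Gpx2 and Slc7a11. All 10 were present in the count table, each under a single entry, among 23719 entries with 23671 distinct symbols. RNA of colon explants was sequenced in 2 groups of C57BL/6 mice, all male and 32 to 34 weeks old, to ask how the colon differs after an exposure that models Gulf War Illness. The 9 Control mice drank water. The 8 GWI mice drank water with pyridostigmine bromide (PB, 2 mg/kg), which inhibits acetylcholinesterase reversibly, over 7 days. Recovery lasted 21 days, and tissue was taken at day 30. Counts per library totalled 16744096 to 20741212 in the Control group (median 17761682) and 16293537 to 18389686 in the GWI group (median 17428511.5).

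Some libraries stood apart from the rest of their group. In Control replicate 9 the 10 most abundant genes took 23.1% of all counts, against 9.72% to 17.3% in the other Control libraries and 11% to 12.8% in the GWI libraries. Its median Spearman correlation with the other Control libraries, across genes, was 0.9269. That value was 0.9447 for Control replicate 1 and lay between 0.9652 and 0.9757 for the remaining Control libraries. Among the GWI libraries, replicate 5 had 0.9673 and the others had 0.9814 to 0.9892.

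NRF2, the protein made from Nfe2l2, is a transcription factor that pairs with small MAF proteins and binds antioxidant response elements near genes for glutathione synthesis, thioredoxin reduction, quinone reduction and heme breakdown. KEAP1 holds NRF2 in the cytoplasm and presents it to a CUL3 ubiquitin ligase for destruction, and oxidants and electrophiles that modify KEAP1 cysteines let NRF2 build up. In the intestine these enzymes work in a tissue that meets reactive compounds from food, bile and bacteria.

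Txnrd1, which makes cytosolic thioredoxin reductase, rose in the GWI colons, and it was the only 1 of the 10 genes with an adjusted p-value under 0.05. All 10 genes had enough counts to be tested, among 14146 genes in all, by the quasi-likelihood test of edgeR, with p-values adjusted over every tested gene by the Benjamini-Hochberg method. That is 10% of the list, beside 26.8% of all tested genes called in either direction, with 13.4% higher and 13.5% lower in GWI. The difference between these shares was not tested. Of the 10, 0 were called lower by edgeR, 3 were lower at an unadjusted p under 0.05 (Hmox1, Gpx2 and Slc7a11), 0 were called lower by the DESeq2 Wald test and 2 by limma-voom (Hmox1 and Keap1). Limma-voom called 4180 of all 14146 tested genes lower. The log2 fold changes, GWI over Control, were positive for 5 genes and negative for 5, with a median of -0.00264. The median over all tested genes was -0.06. Called genes of the whole table were split almost evenly, with 49.8% of them higher, but upper-quartile scaling put 28.9% of them higher and turned the sign of Gclm. The list thus held values of both signs around a median near that of all tested genes.

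**Figure D1:**
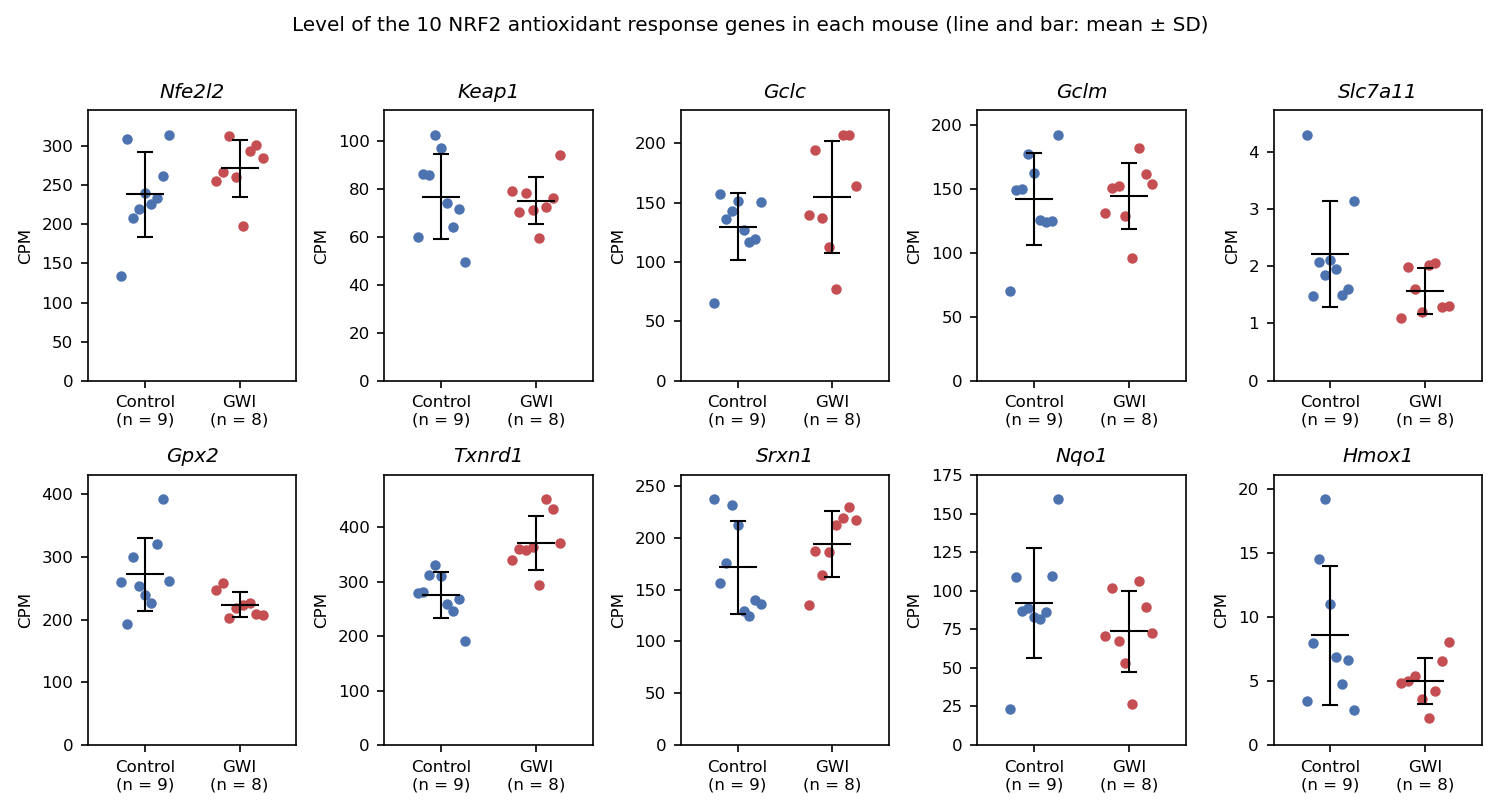
Level in CPM (the gene's count scaled to a fixed library size after TMM normalization) of the 10 NRF2 antioxidant response genes in each of the 9 Control and 8 GWI mice, with 1 panel per gene, a point per mouse, and the group mean with its SD. Txnrd1 is the panel with the clearest separation, with 7 of 8 GWI mice above every Control mouse.

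Txnrd1 (ENSMUSG00000020250.10, chr10:82833951-82897712, plus strand of GRCm38) encodes the selenoenzyme that uses NADPH to keep thioredoxin reduced. Its level ran from 191 to 331 CPM in the Control mice, with a median of 279 CPM. In the GWI mice it ran from 295 to 452 CPM, with a median of 363 CPM. All GWI mice except replicate 5 lay above the highest Control mouse, and 6 of 9 Control mice lay below the lowest GWI mouse. The lowest Control value was that of replicate 9 and the lowest GWI value that of replicate 5, both among the libraries that stood apart. Group means were 276 ± 41.9 CPM (SD, n = 9) in Control and 372 ± 49.97 CPM (SD, n = 8) in GWI. The fold change by edgeR was 1.35, or 0.43 on the log2 scale (SE 0.11, 95% interval 0.22 to 0.65, adjusted p = 0.00995). With any 1 of the 17 mice left out, the log2 fold change stayed between 0.39 and 0.47, and the highest adjusted p by edgeR was 0.0243, without GWI replicate 6. Using the mean log2 CPM of colon epithelium markers as a covariate gave 0.34 (SE 0.13) and an adjusted p of 0.0948 in edgeR, so the call was lost in that setting. The number of all tested genes called also dropped there, from 3792 to 1075. In bulk tissue, a different share of cells of a type and a different amount of RNA per cell cannot be told apart.

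Nfe2l2 and Keap1, the activator and its inhibitor, did not pass the test. Nfe2l2 (ENSMUSG00000015839.6, chr2:75675513-75704641, minus strand) ran from 134 to 315 CPM in Control (median 234 CPM) and from 198 to 313 CPM in GWI (median 276 CPM). Every GWI value lay inside the Control range, and the lowest mouse of each group was Control replicate 1 and GWI replicate 5. The Nfe2l2 log2 fold change was 0.19 (SE 0.14, edgeR adjusted p = 0.315), or 0.12 without Control replicate 1. Keap1 (ENSMUSG00000003308.15, chr9:21229730-21239361, minus strand) ran from 49.3 to 102 CPM in Control (median 73.9 CPM) and from 59.3 to 93.9 CPM in GWI (median 74.1 CPM). These ranges also lay one inside the other, with the 2 medians almost equal. Its log2 fold change was -0.03 (SE 0.13, 95% interval -0.29 to 0.22, edgeR adjusted p = 0.870). The Keap1 log2 fold change turned to 0.028 without Control replicate 4, 0.020 without Control replicate 5 and 0.011 without GWI replicate 5. Limma-voom with quality weights took both genes past the threshold in opposite directions, with an Nfe2l2 log2 fold change of 0.25 (limma-voom adjusted p = 0.0267) and a Keap1 log2 fold change of -0.25 (limma-voom adjusted p = 0.0228). Of the merged exons of Keap1, 10.9% overlap those of Gm16754 on the opposite strand, and the strand setting used for counting is not stated.

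Gclc and Gclm encode the catalytic and the modifier subunit of glutamate-cysteine ligase, the enzyme of the rate-limiting step of glutathione synthesis, and neither passed the test. Gclc (ENSMUSG00000032350.9, chr9:77754535-77794485, plus strand) ran from 65.4 to 157 CPM in Control (median 137 CPM) and from 77.1 to 207 CPM in GWI (median 152 CPM). The groups overlapped widely, yet GWI replicates 2, 6, 7 and 8 lay above all Control mice. The log2 fold change of Gclc was 0.26 (SE 0.19, edgeR adjusted p = 0.313). Gclm (ENSMUSG00000028124.15, chr3:122245557-122270732, plus strand) had means of 142 ± 36.1 CPM (SD, n = 9) in Control and 145 ± 25.9 CPM (SD, n = 8) in GWI. Both group ranges, 70.0 to 193 CPM and 95.8 to 182 CPM, covered nearly the same levels. The Gclm log2 fold change was 0.03 (SE 0.16, edgeR adjusted p = 0.915), and it became -0.050 without Control replicate 1 and -0.026 without GWI replicate 6. Of the merged exons of Gclm, 4.71% overlap those of Gm17494 on the opposite strand and Gm6061 on the same strand.

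Slc7a11 and Gpx2 stand at the entry and at the use of glutathione, and both had lower GWI means that missed the threshold. Slc7a11 (ENSMUSG00000027737.10, chr3:49892526-50443614, minus strand) makes the cystine-importing subunit of the exchanger xCT, and it had the lowest counts of the 10 genes, 26 to 68 per Control library and 21 to 36 per GWI library. It ran from 1.48 to 4.30 CPM in Control (median 1.95 CPM) and from 1.09 to 2.06 CPM in GWI (median 1.46 CPM). Control replicates 1 and 9 were the highest of all mice, and GWI replicates 1, 4, 7 and 8 were below every Control mouse. The log2 fold change of Slc7a11 was -0.49 (SE 0.23, edgeR adjusted p = 0.118, unadjusted p = 0.0483). Much of it rested on the libraries that stood apart, since the Slc7a11 log2 fold change was -0.30 without Control replicate 1 (edgeR adjusted p = 0.238) and -0.20 without Control replicates 1 and 9 (edgeR adjusted p = 0.388). Gpx2 (ENSMUSG00000042808.8, chr12:76792333-76795554, minus strand) encodes the glutathione peroxidase typical of gastrointestinal epithelium. It ran from 193 to 392 CPM in Control (median 261 CPM) and from 203 to 258 CPM in GWI (median 221 CPM). Control replicates 1, 3, 7, 8 and 9 lay above all GWI mice, while Control replicate 2 was the lowest of all. For Gpx2 the log2 fold change was -0.28 (SE 0.12, edgeR adjusted p = 0.0817), and without Control replicate 2 it was -0.33 with an adjusted p of 0.0348. Without Control replicate 8, the highest mouse, the Gpx2 log2 fold change was -0.20 with an edgeR adjusted p of 0.147. Upper-quartile scaling also took Gpx2 past the threshold, at -0.38 with an adjusted p of 0.0274 in edgeR.

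Hmox1 (ENSMUSG00000005413.8, chr8:75093621-75100589, plus strand) encodes heme oxygenase 1, which breaks heme into biliverdin, iron and carbon monoxide, and it had the most negative log2 fold change of the 10 genes. It ran from 2.72 to 19.2 CPM in Control (median 6.87 CPM) and from 2.14 to 8.09 CPM in GWI (median 4.94 CPM). Control replicates 3, 4 and 5 were above all GWI mice, and the other Control mice lay within the GWI range. The group means were 8.59 ± 5.44 CPM (SD, n = 9) and 4.99 ± 1.80 CPM (SD, n = 8), so their difference was smaller than the Control spread. In edgeR the log2 fold change was -0.79 (SE 0.35, 95% interval -1.46 to -0.11, adjusted p = 0.0963). Leaving out Control replicate 9 gave an Hmox1 log2 fold change of -0.88, with an edgeR adjusted p of 0.0426, which passes the threshold, and leaving out Control replicate 1 alone gave -0.88 with an adjusted p of 0.0515, which does not. Leaving out both Control replicates that stood apart, 1 and 9, gave -1.02 with an adjusted p of 0.0119 in edgeR. With GWI replicate 5 left out as well, an alternative chosen after seeing the data, the value was -0.92 with an adjusted p of 0.0163. Limma-voom with quality weights over all 17 mice gave -1.18 with an adjusted p of 0.00107. Hmox1 thus missed the threshold by edgeR over all 17 mice and passed it by limma-voom, and by edgeR without Control replicate 9, alone or with replicate 1. Leaving out Control replicate 4 weakened it most among single mice, to -0.55 with an edgeR adjusted p of 0.211. The highest adjusted p over all alternatives run was 0.409, with the epithelium covariate.

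Nqo1 and Srxn1 encode a quinone reductase and sulfiredoxin, which restores overoxidized peroxiredoxins, and neither differed by more than the spread between mice. Nqo1 (ENSMUSG00000003849.8, chr8:107388225-107403206, minus strand) ran from 23.2 to 159 CPM in Control (median 86.7 CPM) and from 26.8 to 107 CPM in GWI (median 71.7 CPM). Control replicate 1 was the lowest mouse of its group and Control replicate 9 the highest, while GWI replicate 5 was the lowest of its own. The Nqo1 log2 fold change was -0.32 (SE 0.28, edgeR adjusted p = 0.402), and it moved to -0.17 without Control replicate 9 and to -0.19 without GWI replicate 5. Srxn1 (ENSMUSG00000032802.8, chr2:152105516-152111376, plus strand) ran from 125 to 237 CPM in Control (median 156 CPM) and from 135 to 229 CPM in GWI (median 200 CPM). Control replicate 1 was the highest mouse of all for this gene. The Srxn1 difference was 0.18 on the log2 scale (SE 0.15, edgeR adjusted p = 0.381). Apart from Keap1 and Gclm, none of the 10 genes shares exon sequence with another annotated gene.

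Levels of different genes were compared as CPM per kb of merged exons, a description with no test. Gpx2 was highest in the Control mice at 84.5 ± 18.2 CPM per kb (SD, n = 9). Nfe2l2 at 62.9 ± 14.3, Srxn1 at 60.8 ± 15.9 and Nqo1 at 59.2 ± 22.9 CPM per kb followed. These 3 genes lay within each other's spread, and the distance from Gpx2 to the next gene was little more than an SD. Txnrd1 had 38.9 ± 5.91 CPM per kb, within an SD of Nqo1, and Gclc had 34.4 ± 7.46 CPM per kb, within an SD of Txnrd1. Below them, by more than their SD each, came Gclm with 22.6 ± 5.74 and Keap1 with 16.3 ± 3.73 CPM per kb. Hmox1 had 4.91 ± 3.11 CPM per kb, and Slc7a11 closed the order at 0.159 ± 0.0665 CPM per kb. In the GWI mice Nfe2l2 came first with 71.6 ± 9.55 CPM per kb (SD, n = 8), with Gpx2 at 69.6 ± 6.03 and Srxn1 at 68.7 ± 11.3 CPM per kb, all within each other's spread. Txnrd1 was next at 52.5 ± 7.05 CPM per kb, and Nqo1 at 47.5 ± 16.9 and Gclc at 41.1 ± 12.5 CPM per kb lay within the Nqo1 spread of it. Gclm at 23.0 ± 4.12, Keap1 at 15.98 ± 2.09, Hmox1 at 2.85 ± 1.03 and Slc7a11 at 0.113 ± 0.0288 CPM per kb kept their Control order. The order depends on the length used, since with the longest transcript in place of merged exons Nfe2l2 came first among the Control means with 96.5 CPM per kb, ahead of Gpx2 with 86.0 CPM per kb, and Txnrd1 came next with 76.1 CPM per kb, ahead of Srxn1 and Nqo1. On merged exons the Nfe2l2 mRNA thus lay near the levels of Srxn1 and Nqo1 in the Control mice and of Gpx2 and Srxn1 in the GWI mice.

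Mice of the GWI group varied less than Control mice for 9 of the 10 genes, measured by the coefficient of variation of CPM. The median coefficient over the 10 genes was 24.1% in Control and 17.2% in GWI. This was shared by the whole table, in which 81.1% of tested genes varied less in GWI, with medians of 26.6% and 15.6%. Gclc was the exception among the 10 genes, at 21.7% in Control and 30.4% in GWI.

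Within groups, several of the genes varied together from mouse to mouse. After group means were subtracted from log2 CPM, 45 pairs of genes were correlated over the 17 mice, with two-sided permutation p-values from 1e+05 permutations within groups and Benjamini-Hochberg adjustment over the 45 pairs. By Pearson's r, 9 pairs had an adjusted p under 0.05, and 4 of these also did by Spearman's rho. The share of pairs among all tested genes that vary together was not measured. The counts therefore do not show whether these genes are more alike than others. Keap1 and Hmox1 were the closest pair, with r = 0.94 (permutation p = 1e-05, adjusted 0.00045) and rho = 0.912 (permutation p = 1e-05, adjusted 0.00045), where 1e-05 is the smallest value these permutations can give. Without the 2 mice farthest from the median, r for that pair was 0.901. The inhibitor of NRF2 and heme oxygenase 1 thus shared most of their variation among mice of a group. Gclc and Gclm, the subunits of 1 enzyme, had r = 0.893 (permutation p = 2e-05, adjusted 0.00045) and rho = 0.801 (permutation p = 5e-05, adjusted 0.00112), and r = 0.707 without the 2 farthest mice. Nqo1 and Gclc had r = 0.911 (permutation p = 4e-05, adjusted 6e-04) and rho = 0.811 (permutation p = 3e-04, adjusted 0.0045), and r = 0.702 without the 2 farthest mice. Nqo1 and Gclm had r = 0.892 (permutation p = 0.00015, adjusted 0.00135) and rho = 0.701 (permutation p = 0.00231, adjusted 0.0208), and r = 0.593 without them. Nfe2l2 and Nqo1 had r = 0.891 (permutation p = 0.00013, adjusted 0.00135) but rho = 0.613 (permutation p = 0.0117, adjusted 0.0876), and r = 0.624 without the 2 farthest mice.

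Txnrd1, the called gene, had a pair of partners by r and a different one by rho. With Hmox1 it had r = 0.755 (permutation p = 0.00083, adjusted 0.00579) and rho = 0.61 (permutation p = 0.0143, adjusted 0.0921), and r = 0.589 without the 2 farthest mice. With Keap1 it had r = 0.732 (permutation p = 0.00158, adjusted 0.0079) and rho = 0.596 (permutation p = 0.0168, adjusted 0.0944), and r = 0.495 without the 2 farthest mice. Without Control replicate 1 and GWI replicate 5 these values of r were 0.789 and 0.748. With Srxn1 it had r = 0.584 (permutation p = 0.017, adjusted 0.0766) and rho = 0.73 (permutation p = 0.00193, adjusted 0.0208), and r = 0.564 without the 2 farthest mice. The farthest mice were picked on Hmox1, on Keap1 and on Txnrd1 in turn, so they need not be the same in these pairs.

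Control replicate 1 and GWI replicate 5 were the 2 farthest mice for the pairs among Nfe2l2, Nqo1, Gclc and Gclm, and they were low for all of these genes. Against the mean of its own group, Control replicate 1 was at -1.84 for Nqo1, -0.97 for Gclm, -0.95 for Gclc and -0.79 for Nfe2l2 on the log2 scale. GWI replicate 5 was at -1.35 for Nqo1, -0.94 for Gclc, -0.57 for Gclm and -0.45 for Nfe2l2. Nfe2l2 and Gclm had r = 0.816 (permutation p = 0.00134, adjusted 0.00754), rho = 0.471 (permutation p = 0.0742, adjusted 0.226) and r = 0.398 without these mice. Nfe2l2 and Gclc had r = 0.768 (permutation p = 9e-04, adjusted 0.00579), rho = 0.483 (permutation p = 0.047, adjusted 0.218) and r = 0.325 without them. The relation of Nfe2l2 with both ligase subunits thus rested on these 2 mice. Control replicate 9 had another pattern, with Nqo1 at 0.93 and Hmox1 at -1.37 against its group mean. The summed CPM of smooth muscle markers was 19944 in Control replicate 1, second in its group to 23923 in Control replicate 6, and 11832 in GWI replicate 5, the highest of the GWI group. Control replicate 6 was not low for these genes, at -0.03 for Nqo1, 0.007 for Gclc, -0.12 for Gclm and -0.04 for Nfe2l2 against its group mean. Over 70 pairs of an NRF2 gene with the mean log2 CPM of a marker list, correlated in the same way, 0 had an adjusted permutation p under 0.05 by r or by rho, while 12 by r and 10 by rho had an unadjusted p under 0.05. In these pairs the 2 farthest mice were picked on the marker mean, after group means were subtracted, and need not be those above. For the smooth muscle markers they were Control replicates 6 and 9, so Control replicate 1 and GWI replicate 5 stayed in. Nqo1 ran against the smooth muscle markers with r = -0.652 (permutation p = 0.00357, adjusted 0.1) and rho = -0.534 (permutation p = 0.0311, adjusted 0.242), and r = -0.667 without the 2 farthest mice. Nfe2l2 did so with r = -0.656 (permutation p = 0.00789, adjusted 0.111) and rho = -0.64 (permutation p = 0.0108, adjusted 0.172), and r = -0.646 without the 2 farthest mice. Keap1 had r = -0.658 (permutation p = 0.012, adjusted 0.114) and rho = -0.65 (permutation p = 0.0123, adjusted 0.172) with Clps, the only gene of the pancreas list with enough counts to be tested, and r = -0.582 without the 2 farthest mice. The defining pancreas marker, Cpa1, was at 0 in every library, so Clps is not read here as a sign of pancreas tissue. Hmox1 had r = -0.659 (permutation p = 0.0113, adjusted 0.114) and rho = -0.603 (permutation p = 0.0212, adjusted 0.225) with Clps, and r = -0.566 without them. Txnrd1 had r = -0.631 (permutation p = 0.00794, adjusted 0.111) and rho = -0.686 (permutation p = 0.00394, adjusted 0.146) with Clps, and r = -0.742 without the 2 farthest mice. Gclc had r = -0.549 (permutation p = 0.013, adjusted 0.114) and rho = -0.625 (permutation p = 0.00416, adjusted 0.146) with Clps, and r = -0.384 without the 2 farthest mice. Gclm had r = -0.538 (permutation p = 0.0347, adjusted 0.221) and rho = -0.581 (permutation p = 0.0257, adjusted 0.225) with Clps, and r = -0.286 without them. Slc7a11 had r = -0.713 (permutation p = 0.00295, adjusted 0.1) and rho = -0.569 (permutation p = 0.025, adjusted 0.225) with the red blood cell markers, and r = -0.483 without the 2 farthest mice. Srxn1 had r = 0.663 (permutation p = 0.00429, adjusted 0.1) and rho = 0.623 (permutation p = 0.00941, adjusted 0.172) with the epithelium markers, and r = 0.457 without the 2 farthest mice. None of these relations with markers passed the threshold after adjustment.

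**Figure D2:**
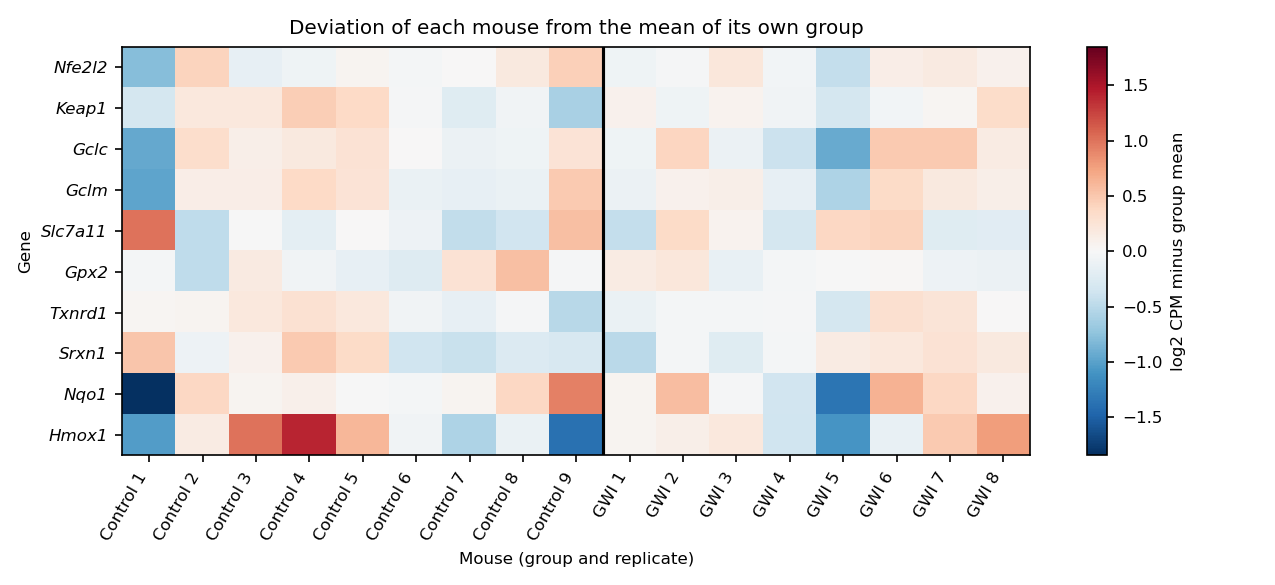
Heat map of log2 CPM minus the mean of the mouse's own group, for the 10 NRF2 antioxidant response genes in the 17 mice. Control replicate 1 and GWI replicate 5 are low for Nqo1 (-1.84 and -1.35), Gclc (-0.95 and -0.94), Gclm and Nfe2l2.

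The tested genes most like Txnrd1 across the 17 mice, by Pearson correlation of log2 CPM with group means subtracted, were Pgd, Slc25a1 and Alad. They are given as a description, picked from all tested genes for this likeness, with no p-value. Pgd, for 6-phosphogluconate dehydrogenase of the pentose phosphate pathway, had r = 0.917 and rho = 0.931. Slc25a1, the mitochondrial citrate carrier, had r = 0.894 and rho = 0.784. Alad, for aminolevulinate dehydratase, had r = 0.889 and rho = 0.853. None of these passed the test between groups, with edgeR log2 fold changes of 0.32 for Pgd, 0.21 for Slc25a1 and 0.23 for Alad.

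Among 79 other genes of the pathway, all of them tested, 6 rose and 9 fell in GWI, which is 7.59% and 11.4%. Together these are 19% of the list, beside 26.8% of all tested genes, and this difference was not tested either. Their median log2 fold change was -0.07. Upper-quartile scaling gave 3 higher and 15 lower, beside 1214 higher and 2992 lower among all tested genes. Limma-voom gave 10 higher and 25 lower, and edgeR without Control replicate 1 gave 23 calls in place of 15. The number of all tested genes called in those settings was 8091 and 4818, in place of 3792. Each of the 15 called genes had the same direction under every scaling, test, filter and left-out library run. With the epithelium covariate, 1 of the 15, Sesn2, was still called, with the smooth muscle covariate 14 of the 15 were, and with the small intestine covariate 7 of the 15 were. A lost call did not always come with a small difference. Txnip had an edgeR adjusted p of 0.0939 with the epithelium covariate. Its log2 fold change was 0.56 or higher in all 14 settings other than single left-out mice. For Abcc3 these values were 0.415 and 0.26.

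**Figure D3:**
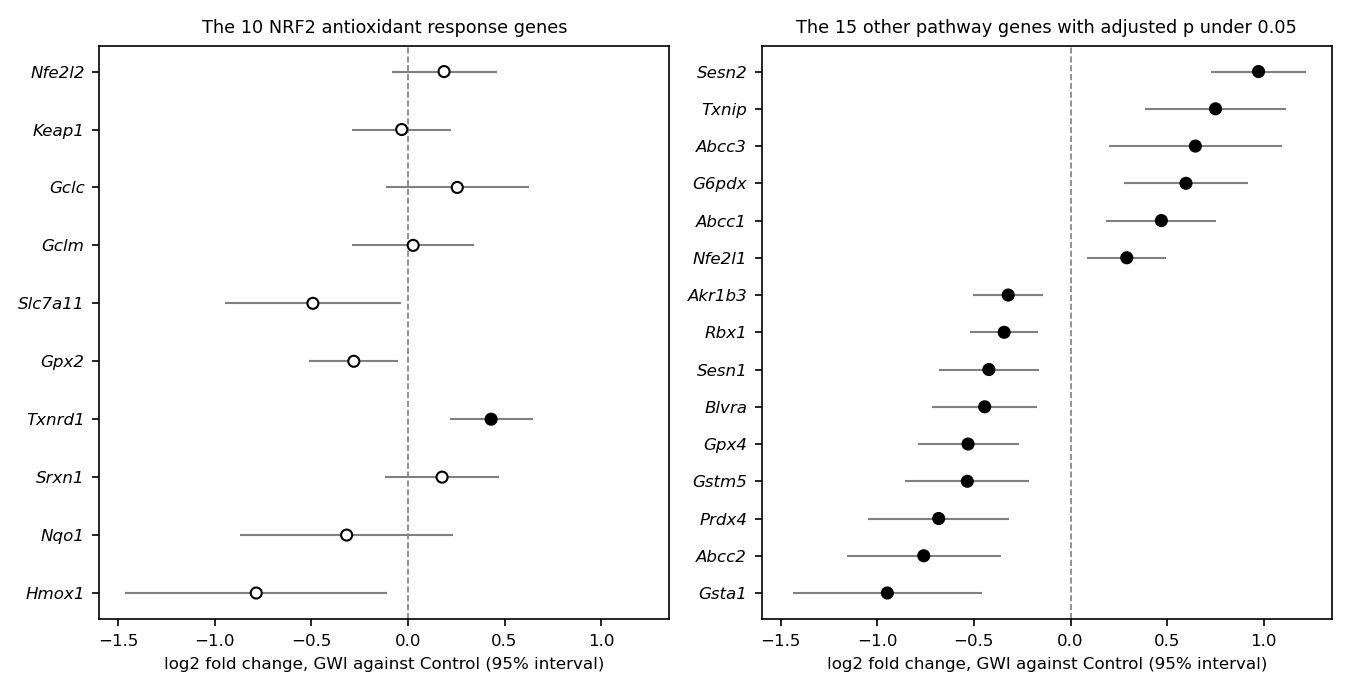
Log2 fold change, GWI over Control, with its 95% interval by edgeR, for the 10 NRF2 antioxidant response genes (left) and the 15 called genes among the 79 other pathway genes (right), where filled points have an adjusted p-value under 0.05. Txnrd1 at 0.43 is the only filled point on the left, and Sesn2 at 0.97 is the highest on the right.

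Of 13 thioredoxin and peroxiredoxin genes, 2 rose and 2 fell, with a median of -0.09. That is 30.8% called, near the 26.8% of all tested genes. Sesn2, a stress-induced sestrin that restrains mTORC1, rose from 13.3 ± 1.63 CPM (SD, n = 9) to 26.2 ± 5.82 CPM (SD, n = 8). It had the highest log2 fold change of the 15, 0.97 (SE 0.13, edgeR adjusted p = 0.000249), with 7 of 8 GWI mice above all Control mice. Txnip, the inhibitor that binds reduced thioredoxin, rose from 708 ± 247 CPM to 1191 ± 190 CPM. Its log2 fold change was 0.75 (SE 0.19, edgeR adjusted p = 0.00895), with 6 of 8 GWI mice above all Control mice, and 19.4% of its merged exons overlap Gm15441 on the opposite strand. Txnip and Txnrd1, which act on thioredoxin in opposite ways, therefore both rose. Prdx4, the peroxiredoxin of the endoplasmic reticulum, fell from 27.2 ± 10.1 CPM to 16.9 ± 3.06 CPM, at -0.68 on the log2 scale (SE 0.19, edgeR adjusted p = 0.0137), with 5 of 8 GWI mice below all Control mice. Sesn1, a sestrin induced by p53, had a log2 fold change of -0.42 (SE 0.13, edgeR adjusted p = 0.0258), and the adjusted p was 0.0522 without GWI replicate 6.

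Of 8 genes for glutathione synthesis and reduction, 1 fell (12.5%, beside 13.5% of all tested genes), and the median was -0.08. That gene was Gpx4, the peroxidase that reduces lipid hydroperoxides in membranes, at 213 ± 51.8 CPM (SD, n = 9) in Control and 147 ± 21.4 CPM (SD, n = 8) in GWI. Its log2 fold change was -0.53 (SE 0.13, edgeR adjusted p = 0.00931), with 6 of 8 GWI mice below all Control mice. Of 17 glutathione transferases, 2 fell (11.8%), and the median of 0.04 turned to -0.06 with upper-quartile scaling and to -0.22 with limma-voom. Gsta1, an alpha class transferase, fell from 17.1 ± 7.55 CPM to 8.85 ± 2.06 CPM, at -0.95 on the log2 scale (SE 0.25, edgeR adjusted p = 0.0116). Gstm5, of the mu class, had -0.53 on that scale (SE 0.16, edgeR adjusted p = 0.023), and 13.9% of its merged exons overlap 4933431E20Rik on the opposite strand.

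NADPH feeds both the thioredoxin and the glutathione systems, and 1 of 6 NADPH supply genes rose (16.7%, beside 13.4% of all tested genes), with a list median of 0.18. G6pdx, for glucose-6-phosphate dehydrogenase at the entry to the pentose phosphate pathway, rose from 58.3 ± 13.8 CPM (SD, n = 9) to 88.3 ± 18.6 CPM (SD, n = 8). The log2 fold change of G6pdx was 0.60 (SE 0.16, edgeR adjusted p = 0.0137), with 7 of 8 GWI mice above all Control mice, and 13.6% of its merged exons overlap Ikbkg on the opposite strand. Of 9 regulators around KEAP1 and NRF2, 1 rose and 1 fell (22.2% called, beside 26.8%), with a median of 0.18. Rbx1, the RING subunit of cullin ligases, had -0.34 on the log2 scale (SE 0.09, edgeR adjusted p = 0.0107). Nfe2l1, a relative of Nfe2l2 known for control of proteasome genes, had 0.29 on that scale (SE 0.10, edgeR adjusted p = 0.046), with means of 212 ± 37.5 CPM in Control and 260 ± 13.6 CPM in GWI. That call was close to the threshold, since it held in 4 of the 17 fits with 1 mouse left out, those without Control replicate 1, 4 or 9 or GWI replicate 2, and in 7 of 14 other settings, and the highest adjusted p with 1 mouse left out was 0.0814, without GWI replicate 3.

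Of 14 genes for quinone, carbonyl and conjugate handling, 2 rose and 2 fell, with a median of -0.10. The share called was 28.6%, near the 26.8% of all tested genes. The called genes include transporters of the multidrug resistance family, which export glutathione and glucuronide conjugates. Abcc3, an exporter of the basolateral membrane, had a log2 difference of 0.65 (SE 0.23, edgeR adjusted p = 0.0433), at 271 ± 114 CPM in Control and 424 ± 80.7 CPM in GWI. Its call held in 7 of the 17 fits with 1 mouse left out, those without Control replicate 1, 2, 4, 5 or 9 or GWI replicate 1 or 5, and in 8 of 14 other settings, and the adjusted p reached 0.0897 without GWI replicate 7. Abcc1 rose by 0.47 on the log2 scale (SE 0.15, edgeR adjusted p = 0.0241), from 41.4 ± 10.2 CPM to 57.3 ± 9.89 CPM, and its adjusted p was 0.0524 without GWI replicate 2. Abcc2, the exporter of the apical membrane, fell from 9.28 ± 3.06 CPM to 5.48 ± 1.24 CPM, at -0.76 on the log2 scale (SE 0.20, edgeR adjusted p = 0.0123). Abcc4, of the same family and named after its values were seen, had -0.046 (SE 0.17, edgeR adjusted p = 0.857). Akr1b3, an aldose reductase, had -0.32 on the log2 scale (SE 0.09, edgeR adjusted p = 0.0168). With upper-quartile scaling, 0 of the 14 genes were called higher by edgeR, 2 were higher at an unadjusted p under 0.05, and limma-voom and the DESeq2 Wald test called 3 and 2 higher. Among all 14146 tested genes, 1214 were called higher with upper-quartile scaling, 3911 by limma-voom and 2171 by the DESeq2 Wald test.

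Of 8 genes for heme and iron handling, 1 fell (12.5%, beside 13.5% of all tested genes), with a median of -0.11. Blvra, for the biliverdin reductase that follows heme oxygenase, had -0.44 on the log2 scale (SE 0.14, edgeR adjusted p = 0.0257), and its adjusted p was 0.0515 without GWI replicate 3. Of 4 genes for superoxide and hydrogen peroxide removal, 0 were called by edgeR, 1 was lower at an unadjusted p under 0.05, and the DESeq2 Wald test and limma-voom each called 1 lower. Among all 14146 tested genes, the DESeq2 Wald test called 2444 lower and limma-voom 4180.

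Some markers of the cell types in a piece of colon wall differed between the groups. Of 11 colon epithelium markers 4 rose (Epcam, Vil1, Cdh1 and Cdx2, named after their values were seen), which is 36.4% beside 13.4% of all tested genes, and the list median was 0.38. The most abundant was Car1, with 12478 ± 7385 CPM (SD, n = 9) in Control and 11963 ± 5050 CPM (SD, n = 8) in GWI, and the epithelium sum ran from 19554 to 40274 CPM in Control and from 21461 to 39253 CPM in GWI. Of 10 smooth muscle markers 7 fell, which is 70% beside 13.5% of all tested genes, with a median of -0.91. Myh11 was the most abundant, at 2962 ± 1974 CPM in Control and 1379 ± 579 CPM in GWI. The smooth muscle sum ran from 3690 to 23923 CPM in Control (median 11584 CPM) and from 3658 to 11832 CPM in GWI (median 5142 CPM), so Control pieces of colon differed widely in muscle RNA. Of 10 macrophage markers 2 fell (Lyz2 and Mrc1, named after their values were seen), which is 20% beside that same 13.5%, while 9 of 10 had negative values and the list median was -0.35. Limma-voom called 7 of the 10 macrophage markers lower, in a setting where it called 4180 of all 14146 tested genes lower. The most abundant, Lyz2, had means of 61.8 and 39.8 CPM, and the sum ran from 89.3 to 182 CPM in Control and from 81.1 to 118 CPM in GWI. Macrophages that clear red blood cells express Hmox1 strongly. Within groups, Hmox1 and the macrophage markers had r = 0.451 (permutation p = 0.117, adjusted 0.386) and rho = 0.495 (permutation p = 0.065, adjusted 0.379) over the 17 mice. Without the 2 mice farthest on the macrophage markers, r was 0.345. Whether the macrophage share bears on the Hmox1 difference was not tested. Of 5 red blood cell markers 0 were called by edgeR, 0 passed an unadjusted p under 0.05, and 0 were called by the DESeq2 Wald test or by limma-voom, with Hbb-bs the most abundant at 19.2 CPM in Control and 15.2 CPM in GWI.

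Of 10 small intestine markers 6 had enough counts to be tested, of which 1 rose (Alpi, 16.7% of the 6) and 2 fell (Fabp6 and Lyz1, 33.3%), all named after their values were seen, with Fabp2 the most abundant at means of 902 and 681 CPM. Of all tested genes 13.4% were called higher and 13.5% lower. Limma-voom called 0 of the 6 lower, with 1 lower at an unadjusted p under 0.05. Upper-quartile scaling called 0 higher by edgeR, with 1 higher at an unadjusted p under 0.05. In Control, Fabp6 had a mean of 51.8 and a median of 5.98 CPM, and Lyz1 a mean of 61.4 and a median of 5.92 CPM. The sum of the small intestine markers was highest in Control replicate 9 with 2438 CPM, Control replicate 7 with 1885 CPM and Control replicate 6 with 1320 CPM, against 1057 CPM at most in GWI. Of 9 pancreas markers 1 was tested, Clps, which fell from a mean of 19.4 to 11.05 CPM, and the defining marker Cpa1 was at 0 in every library. That call was lost with limma-voom, at -0.32 on the log2 scale in place of -0.81, and without Control replicates 1 and 9 and GWI replicate 5, at -0.56. Of 6 adipocyte markers 1 rose (Cidec, named after its values were seen), which is 16.7%, near the 13.4% of all tested genes. Positive values were found for 6 of 6, and the list median was 1.09. Fabp4 was the most abundant at means of 61.9 and 76.3 CPM, and the highest sum was 789 CPM in GWI replicate 7. With the smooth muscle markers as a covariate the Txnrd1 log2 fold change was 0.49 (SE 0.13, edgeR adjusted p = 0.00764), as large as without it. That covariate also moved Nqo1 to -0.76 with an adjusted p of 0.0372, and Gpx2 to -0.40 with an adjusted p of 0.0142 in edgeR, which is past the threshold for both genes. Calls rose over the whole table in that setting, to 2531 higher and 2793 lower, in place of 1889 and 1903. The epithelium covariate moved them the other way, with an Nqo1 log2 fold change of -0.079 (edgeR adjusted p = 0.911) and a Gpx2 log2 fold change of -0.20 (edgeR adjusted p = 0.344). Slc7a11 had -0.85 with an adjusted p of 0.0425 in edgeR with the epithelium covariate. With the small intestine markers as a covariate the number of NRF2 genes called was again 1, with a Txnrd1 log2 fold change of 0.41 (edgeR adjusted p = 0.0342). No model was fitted with the macrophage, red blood cell, pancreas or adipocyte markers.

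Promoter windows, from 250 bases before to 50 bases after a gene start, were available from RefSeq (GRCm38.p6) for 8 of the 10 genes, all but Hmox1 and Gclc. The core of the antioxidant response element was searched as TGACNNNGC on both strands, and the related AP-1 motif as TGANTCA, which reads the same on both strands. The core was found in 12.4% of all 32851 windows, in 4 of the 10 windows of these 8 genes and in 19 of the 96 windows of other pathway genes (19.8%). A gene may have several windows, and by gene it was found in 4 of the 8 and in 16 of 68 other pathway genes. The genes with a match were Txnrd1, in 1 of its 3 windows, at a start inside the annotated gene, and Nfe2l2, Gclm and Srxn1. The AP-1 motif was found in 7.81% of all windows, in 10 of the 96 windows of other pathway genes (10.4%) and, among the 8 genes, in Srxn1 only, at 2 positions that do not overlap the core match. Shown here are the whole Txnrd1 window, as the gene that rose, and the stretches around the match in Nfe2l2 and Gclm, to compare an upstream match in genes that did not pass the test. Capitals mark the bases of the core match, which in Txnrd1 and Gclm lies on the opposite strand and so appears as its reverse complement.
Txnrd1, chr10:82858956-82859255, plus strand: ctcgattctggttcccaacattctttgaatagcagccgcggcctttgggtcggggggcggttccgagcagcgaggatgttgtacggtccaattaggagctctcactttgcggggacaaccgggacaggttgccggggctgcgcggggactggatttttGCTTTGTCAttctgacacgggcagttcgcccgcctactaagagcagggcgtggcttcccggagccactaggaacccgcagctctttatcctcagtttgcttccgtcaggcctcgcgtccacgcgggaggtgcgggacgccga
Nfe2l2, chr2:75704865-75704913, minus strand: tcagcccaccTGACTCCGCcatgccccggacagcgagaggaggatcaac
Gclm, chr3:122245393-122245461, plus strand: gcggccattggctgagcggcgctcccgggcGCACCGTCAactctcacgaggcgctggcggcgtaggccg
By the bounds of the windows, 83 bases lay between the match and the start in Txnrd1, 125 in Gclm and 231 in Nfe2l2. In Srxn1 it lay after the start. A match to these letters is a description of the window, and binding of NRF2 was not measured.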

How the data were processed

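RNA of colon explants from 9 Control and 8 GWI mice was sequenced as poly(A) libraries. By the submitters' processing notes, reads were trimmed with Trimmomatic 0.36, aligned to GRCm38 with STAR 2.5.2b and counted per gene with featureCounts, and the authors deposited each value as a raw count. The strand setting and the annotation release are not stated. The 10 genes and the pathway and marker lists were chosen with earlier results of these data known. Genes with low counts were removed with edgeR's filterByExpr, which kept 14146. Counts were scaled with TMM and compared with edgeR 4.0.16 (glmQLFit with robust estimation, glmQLFTest, two-sided) in R 4.3.3, with Benjamini-Hochberg adjustment over all tested genes and an adjusted p-value under 0.05 as threshold. Group was the only term. The labels name no batch, but they give each library a code whose letters and numbers are partly shared between libraries and are not explained, and these were not modelled. P-values treat the mice as independent. CPM used TMM-scaled library sizes, and log2 CPM a prior count of 2. Alternatives were other scalings, filters and thresholds, DESeq2 1.42.0, limma-voom (limma 3.58.1) with quality weights, marker scores as covariates, a replicate block, and left-out libraries. Leaving out Control replicates 1 and 9 with GWI replicate 5 was chosen after seeing the data. Named were the 10 genes, up to 3 called genes per direction of each other pathway list by smallest p-value, the most abundant gene of each marker list and the 3 genes most correlated with each called gene. Exon lengths and overlaps came from GENCODE for GRCm38. The procedure was tested on simulated data. Figures were drawn with matplotlib 3.10.9.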

Additional observations from a re-analysis of the deposited data

Results flagged for a closer look

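Gclc in Control replicate 1 had 65.4 CPM, far below the next Control mouse at 117 CPM. The gap was 0.56 of the range of the 9 Control mice, above Dixon's critical value for 9 samples. This was 1 of 20 groups of values checked, and chance marks about 1 group in 20. Control replicate 1 was among the libraries that stood apart from their group.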

How the results depend on the processing

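Txnrd1 was called in all 17 fits with 1 mouse left out and in 13 of 14 other settings, the exception being the epithelium covariate (adjusted p = 0.0948). The number of NRF2 genes called, 1, was 2 with upper-quartile scaling, 4 with limma-voom, 3 with the smooth muscle covariate, 2 without Control replicates 1 and 9, 2 without these and GWI replicate 5, 3 at an adjusted p under 0.1, and 0 in edgeR at an unadjusted p under 0.05 with an absolute log2 fold change over 1. It was 1 to 2 with 1 mouse left out. The 15 other pathway genes became 35 with limma-voom, 2, 29 and 9 with the epithelium, smooth muscle and small intestine covariates, 28 without Control replicates 1 and 9, 33 without these and GWI replicate 5, 3 and 24 at an adjusted p under 0.01 and 0.1, 0 by edgeR with the fold rule, and 12 to 23 with 1 mouse left out. The number of all tested genes called, 3792, became 8091 with limma-voom, 1075 and 2286 with the epithelium and small intestine covariates, 5970 without Control replicates 1 and 9 and GWI replicate 5, 1361 at an adjusted p under 0.01, 342 with the fold rule, and 2781 to 4818 with 1 mouse left out. With the smooth muscle covariate 2531 of all tested genes were called higher and 2793 lower. Without Control replicates 1 and 9, 2786 were called higher and 2778 lower.

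Replicate numbers occur in both groups for 8 numbers, but expression of mice with the same number was not alike (correlations of -0.506 to 0.115), so the numbers were not used as pairs. With replicate number as a block, the number of other pathway genes called was 5, all of them among the 15, and the number of all tested genes called was 2218.

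Log2 fold changes changed sign for 4 uncalled genes. The Nfe2l2 log2 fold change became -0.024 with the smooth muscle covariate. The Keap1 log2 fold change became 0.026 with the epithelium covariate and 0.077 with the smooth muscle covariate, and ranged from -0.085 to 0.028 with 1 mouse left out. The Gclm log2 fold change became -0.071 with upper-quartile scaling, -0.048 with limma-voom, -0.16 with the smooth muscle covariate and -0.0093 without Control replicates 1 and 9, and ranged from -0.050 to 0.10 with 1 mouse left out. The Srxn1 log2 fold change became -0.088 with the epithelium covariate. The cause was not tested. Slc7a11, with 21 to 68 counts per library, had the fewest counts behind its values.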
